A study of Rattus norvegicus with 58 samples.

Results

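Glucocorticoid target genes were examined here as 8 named genes: Nr3c1, which encodes the glucocorticoid receptor, and Fkbp5, Tsc22d3, Klf9, Klf15, Zbtb16, Sgk1 and Mt2A, which the hormone is known to induce in many tissues. They were chosen by gene symbol, with earlier results of these data known, through probe sets that the platform annotation assigns to that symbol alone. Of the 8 genes, 7 were measured, by 13 of the 31042 probe sets, out of 14217 genes with a probe set of their own. No probe set carried Zbtb16, a zinc finger transcription factor gene, alone, so it was not analysed here. Where a gene had several probe sets, the one with the highest mean over all arrays gave its level and the others served as a check.

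Corticosterone, the main glucocorticoid of the rat, enters the cell and binds its receptor, which is held ready by heat shock chaperones and their partners. The bound receptor moves to the nucleus, attaches to DNA and raises or lowers the transcription of nearby genes. In liver this signal is known for sustaining glucose output and amino acid breakdown during fasting, and the hormone itself follows a daily rhythm and responds to stress.

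The study asked which liver transcripts differ between outbred rats that handle glucose poorly and those that handle it normally. Liver RNA of 58 male rats aged 17 weeks was measured on Affymetrix rat arrays, 1 array per sample. All rats had been housed as cage pairs with free access to food, fasted overnight and decapitated, and the labels name no engineered allele. Heterogeneous stock (HS) rats, an outbred colony derived from several inbred strains, gave 46 arrays: 23 from glucose-intolerant HS rats and 23 from HS rats with normal glucose tolerance. Inbred rats of 6 strains (ACI, BN, BUF, F344, M520, WKY) gave 2 arrays per strain, 12 in all. The labels state neither the inbred rats' glucose tolerance, nor circulating corticosterone, nor the hour of death.

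Values are log2 expression as deposited, so that a difference of 1 is a doubling. The array medians lay between 5.33 and 5.39. The arrays of a strain correlated with each other at 0.989 to 0.997, and no arrays held identical values. Of 8 hepatocyte markers, 0 lay below the array median in any group, whereas all 8 markers of T, B and NK cells lay below it in every group. Against the other HS arrays, the mean correlation of an HS array ran between 0.984 and 0.991. The 5 HS arrays lowest in this respect were left out in a check, and results that rest on them are named below. Whether rats of 1 strain were littermates or were killed on 1 day is unstated, so a p-value reflects only how far these particular arrays scatter. In whole liver, fewer cells of a type and less RNA per cell cannot be told apart.

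Nr3c1 encodes the receptor that carries the hormone's signal (gene at chr18:31522783-31644508 in GRCr8; probe set 1368221_at). Its level had a lowest value of 8.81, a median of 9.28 and a highest value of 9.69 in intolerant HS livers, against 8.60, 9.27 and 9.59 in normal HS livers. The inbred livers gave 9.46 and 9.29 in ACI, 8.92 and 8.85 in BN, 9.17 and 8.46 in BUF, 9.13 and 8.76 in F344, 9.36 and 9.23 in M520, and 9.64 and 9.38 in WKY. The glucose groups covered nearly the same range, and the strain with the highest mean, WKY, was 1.62 times the lowest, BUF. Over the 46 HS livers the highest level was 2.13 times the lowest.

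Fkbp5 encodes FKBP51, an Hsp90 co-chaperone that lowers the receptor's affinity for hormone and is itself induced by the receptor (chr20:6458931-6577227; probe set 1388901_at). Its level had a lowest value of 6.24, a median of 6.99 and a highest value of 9.08 in intolerant HS livers, against 6.25, 7.21 and 9.31 in normal HS livers. The highest HS liver was 8.40 times the lowest. Inbred livers showed 6.64 and 7.41 in ACI, 8.64 and 9.01 in BN, 6.57 and 6.90 in BUF, 7.20 and 8.20 in F344, 6.10 and 6.36 in M520, and 6.88 and 6.36 in WKY. Both BN livers lay above the 10 other inbred livers, and F344 had the second highest mean. Among HS livers the widest gap between neighbouring values was 0.23, or 7.4% of the range, and it set off only the highest liver. Overlapping groups of livers would leave no wide gap, so the gap cannot decide whether such groups exist.

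Tsc22d3 encodes GILZ, a leucine zipper protein through which glucocorticoids restrain inflammatory signalling (chrX:109006410-109066389; probe set 1367771_at). It showed a lowest value of 8.50, a median of 10.12 and a highest value of 11.14 in intolerant HS livers, against 8.61, 10.17 and 10.95 in normal HS livers. Inbred livers gave 9.61 and 10.62 in ACI, 10.77 and 10.08 in BN, 8.91 and 9.24 in BUF, 9.51 and 9.74 in F344, 10.19 and 10.42 in M520, and 8.85 and 8.76 in WKY. Both WKY livers lay below the 10 other inbred livers, with BUF next. The highest HS liver was 6.26 times the lowest, and the highest strain mean 3.08 times the lowest. The first range is over single livers and the second over means of 2 arrays, so they are not like measures. The SD was 0.78 over the HS livers and 0.67 among the strain means.

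Klf9 and Klf15 encode Kruppel-like transcription factors that the receptor induces directly. Klf15 is known for driving amino acid breakdown and gluconeogenesis in fasted liver, and Klf9 for mediating glucocorticoid effects on other genes. Klf9 (chr1:230126646-230151641; probe set 1370209_at) had a lowest value of 10.28, a median of 11.10 and a highest value of 11.74 in intolerant HS livers, against 10.25, 10.95 and 11.87 in normal HS livers. Its inbred values were 10.01 and 10.89 in ACI, 11.35 and 11.75 in BN, 10.55 and 11.08 in BUF, 11.36 and 11.48 in F344, 11.03 and 10.74 in M520, and 11.25 and 10.13 in WKY. The 2 WKY livers differed by 1.12, about as much as the 1.10 between the highest strain mean (BN) and the lowest (ACI).

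Klf15 (chr4:124522652-124535613; probe set 1368249_at) had a lowest value of 9.32, a median of 10.10 and a highest value of 10.70 in intolerant HS livers, against 9.46, 10.13 and 10.81 in normal HS livers. Inbred values were 9.32 and 10.05 in ACI, 10.94 and 10.71 in BN, 9.56 and 9.33 in BUF, 9.63 and 9.96 in F344, 9.54 and 9.97 in M520, and 9.15 and 9.14 in WKY. Both BN livers lay above all 10 others and both WKY livers below all 10 others, so for Klf15 the BN and WKY livers held both ends of the range.

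The promoters of Klf15 and Klf9 are shown because these factors varied together across rats, as described below, and because Klf15 also varied with several clock genes, whose promoters often carry an E-box. Both are the 250 bases before a transcription start in RefSeq (GRCr8), on the plus strand. They lie at chr4:124522765-124523014 for Klf15, inside the gene span given above, and at chr1:230126396-230126645 for Klf9. Capitals mark the E-box CACGTG, searched on both strands.
Klf15: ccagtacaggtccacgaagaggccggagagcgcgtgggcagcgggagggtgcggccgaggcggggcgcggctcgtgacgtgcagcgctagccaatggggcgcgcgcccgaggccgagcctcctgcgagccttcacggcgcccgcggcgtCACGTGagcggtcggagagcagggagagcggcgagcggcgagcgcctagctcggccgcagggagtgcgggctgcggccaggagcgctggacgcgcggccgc
Klf9: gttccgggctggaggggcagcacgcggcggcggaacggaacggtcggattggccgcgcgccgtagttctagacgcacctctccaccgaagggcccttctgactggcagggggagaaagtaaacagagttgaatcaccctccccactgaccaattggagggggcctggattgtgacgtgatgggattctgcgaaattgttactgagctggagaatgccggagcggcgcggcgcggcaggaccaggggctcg
The Klf15 stretch held 1 CACGTG, 101 to 96 bases before the start, and the Klf9 stretch held none. Of 33469 RefSeq promoters of this length, 5.59% held one. Neither the glucocorticoid response element (2 copies of AGAACA facing each other across 3 bases), present in 0.012% of promoters, nor AGAACA alone, present in 17.5%, was found in the promoter stretches of the 7 measured genes, on either strand. These letters were sought only in the 250 bases before each start, and no statement about binding follows. The stretches of Klf15, Fkbp5, Sgk1 and Nr3c1, and some of those of Tsc22d3, lie inside the spans of their genes.

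Sgk1 encodes a serine/threonine kinase that adjusts ion channels and transporters (chr1:24799391-24916886; probe set 1367802_at). It showed a lowest value of 7.23, a median of 7.96 and a highest value of 9.03 in intolerant HS livers, against 7.34, 7.99 and 8.61 in normal HS livers. Inbred livers gave 8.04 and 7.96 in ACI, 8.30 and 8.70 in BN, 7.81 and 7.40 in BUF, 7.76 and 7.70 in F344, 9.04 and 7.95 in M520, and 8.68 and 8.70 in WKY. WKY, BN and M520 had the higher means and BUF and F344 the lower ones, while 1 M520 liver was as low as the ACI livers.

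Mt2A encodes a metallothionein, a small cysteine-rich protein that binds zinc and copper, and its gene responds to metals as well as to glucocorticoids (chr19:10837934-10838708; probe set 1388271_at). Its level had a lowest value of 9.77, a median of 11.21 and a highest value of 12.25 in intolerant HS livers, against 8.43, 11.44 and 12.81 in normal HS livers. The highest HS liver was 20.9 times the lowest. A pair of normal HS livers, at 8.43 and 8.80, lay apart from the other 44 HS livers by a gap of 0.97. Inbred values were 11.42 and 11.72 in ACI, 12.44 and 12.97 in BN, 10.81 and 10.84 in BUF, 9.44 and 10.38 in F344, 8.17 and 9.23 in M520, and 12.17 and 9.74 in WKY. Both BN livers lay above and both M520 livers below the 10 other inbred livers, and the WKY livers differed from each other by 2.43.

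The Mt2A promoter is shown beside that of its neighbour and paralog Mt1 because both genes had their highest mean in BN and their lowest in M520, and because metallothionein promoters are known for short metal response elements. The stretches are the 250 bases before each start in RefSeq (GRCr8), on the minus strand, chr19:10838709-10838958 for Mt2A and chr19:10832976-10833225 for Mt1. Capitals mark the metal response cores TGCGCNC and TGCACNC and the E-box CACGTG, on either strand.
Mt2A: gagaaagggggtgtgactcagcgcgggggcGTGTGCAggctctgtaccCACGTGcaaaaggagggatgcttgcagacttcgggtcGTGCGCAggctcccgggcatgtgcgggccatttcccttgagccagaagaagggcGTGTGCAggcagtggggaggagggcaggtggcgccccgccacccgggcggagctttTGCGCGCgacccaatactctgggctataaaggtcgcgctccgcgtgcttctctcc
Mt1: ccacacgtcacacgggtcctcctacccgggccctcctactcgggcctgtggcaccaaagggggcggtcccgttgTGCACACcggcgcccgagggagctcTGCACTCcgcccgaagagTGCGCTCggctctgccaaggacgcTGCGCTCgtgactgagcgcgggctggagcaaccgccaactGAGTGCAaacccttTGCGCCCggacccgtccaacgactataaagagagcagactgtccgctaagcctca
Mt2A held 4 metal cores, 2 of each kind, between 220 and 49 bases before its start, and 1 CACGTG. At least 4 cores were found in 0.266% of the 33469 promoters, whereas 20.6% held at least 1. Mt1 held 6 cores, and 0.0269% of promoters held at least as many. Of the other measured genes, 1 of the 2 Nr3c1 promoters held 1 core and the rest held none.

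**Figure D1:**
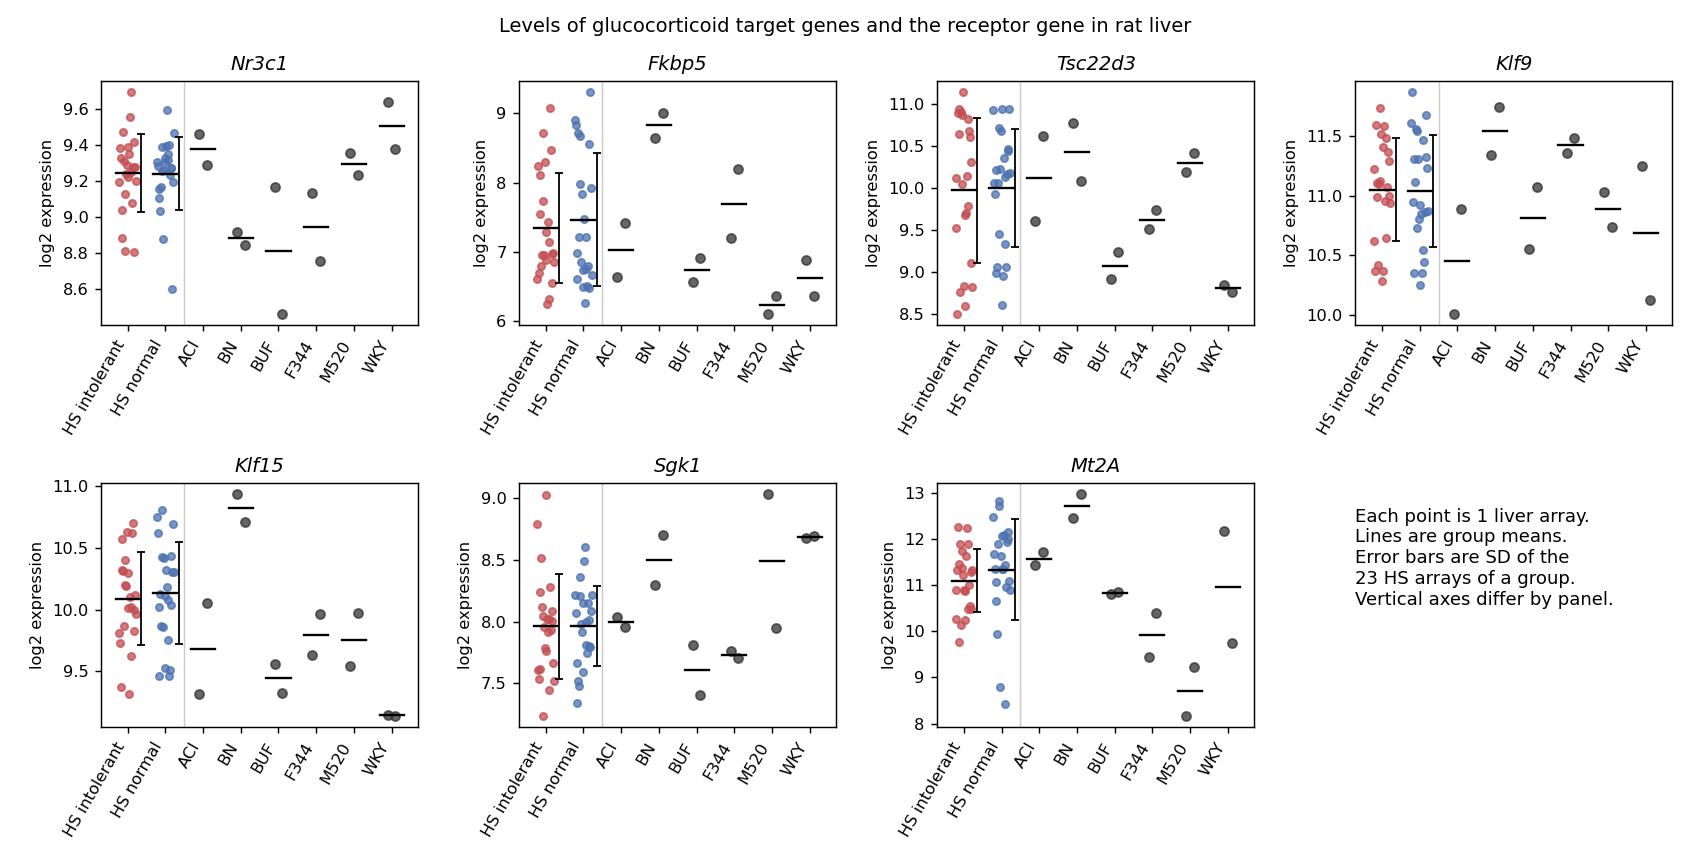
Log2 expression (vertical axes, which differ by panel) of the 7 measured genes in intolerant HS, normal HS and 6 inbred strains; each point is 1 array, lines are means and error bars the SD of 23 HS arrays. The HS groups overlap throughout, while Fkbp5, Klf15 and Mt2A stand highest in BN, Mt2A lowest in M520, and Tsc22d3 and Klf15 lowest in WKY.

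No glucocorticoid target gene, nor the receptor gene, passed the test between intolerant and normal HS livers, whose means lay close together. Fkbp5 averaged 7.34 ± 0.80 in intolerant and 7.47 ± 0.96 in normal HS livers (SD, n = 23 each), a difference of -0.12 with a 95% confidence interval of -0.62 to 0.38. Mt2A averaged 11.09 ± 0.68 in intolerant and 11.33 ± 1.09 in normal HS livers, a difference of -0.24 (interval -0.76 to 0.28). Klf15 differed by -0.05 (-0.27 to 0.18), Klf9 by 0.01 (-0.25 to 0.27), Tsc22d3 by -0.02 (-0.47 to 0.43), Sgk1 by -0.00 (-0.22 to 0.21) and Nr3c1 by 0.00 (-0.12 to 0.12).

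Limma's moderated test called 0 of 7 genes, against 0% of all 31042 probe sets, and the smallest adjusted p among the 7 was 0.839, for Mt2A. At an unadjusted p under 0.05 there were also 0 of 7, against 8% of all probe sets. A second, dim Nr3c1 probe set (1368222_at, mean 4.48, below the array medians) was higher in intolerant livers by 0.22 with an unadjusted p of 0.00113, but its adjusted p was 0.288 and it correlated with the brighter one at only 0.311 over the HS livers. As fold changes of intolerant over normal livers, the intervals ran from 0.648 to 1.298 for Fkbp5 and from 0.919 to 1.09 for Nr3c1.

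Of the other genes tied to the hormone, 0 of 27 further responsive genes, 0 of 12 chaperones and coregulators of the receptor and 0 of 5 genes of corticosterone handling were called between the glucose groups in limma. At an unadjusted p under 0.05 there were 1, 1 and 0 of them, against the 8% of all probe sets. Igfbp1, an insulin-repressed binding protein of insulin-like growth factors that glucocorticoids induce, was 9.86 in intolerant and 10.24 in normal HS livers on average (unadjusted p = 0.0791, adjusted p = 0.659 in limma). Hsd11b1, the enzyme that regenerates active corticosterone in liver, averaged 12.95 in intolerant and 12.999 in normal HS livers (adjusted p = 0.856). Tat, tyrosine aminotransferase and a classic receptor target, differed by 0.02.

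Among inbred strains, Fkbp5, Klf15, Tsc22d3 and Mt2A differed, and Sgk1, Klf9 and Nr3c1 did not pass the test. Limma's moderated F test over the 6 strains called 4 of 7 genes, where 11.9% of all probe sets and 18.3% of those at or above the median level were called. The adjusted p was 0.00262 for Fkbp5, 0.00705 for Klf15, 0.0116 for Tsc22d3 and 0.0125 for Mt2A, against 0.0661 for Sgk1, 0.123 for Nr3c1 and 0.187 for Klf9. From the lowest strain mean to the highest, the range was 16.1-fold for Mt2A, 6.05-fold for Fkbp5, 3.21-fold for Klf15 and 3.08-fold for Tsc22d3. The second Fkbp5 probe set (1380611_at) gave a range of 2.47-fold and was not called (adjusted p = 0.113). Fitting all 58 arrays together, where outbred variation enters the error, left Mt2A (adjusted p = 0.0108) and Klf15 (0.0152) called, added Nr3c1 (0.0394), and lost Fkbp5 (0.123) and Tsc22d3 (0.328). Without BN replicate 1 Klf15 missed the threshold (0.0626), and without M520 replicate 1 Mt2A did (0.0597). With trend and robust estimation Mt2A was not called (0.0798). Sgk1 passed when 1 of the M520 livers, whichever it was, was left out (0.013 and 0.00478), and Nr3c1 without BUF replicate 1 (0.0166).

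BN livers carried the higher levels of Fkbp5, Mt2A and Klf15. Fkbp5 averaged 8.83 in BN and 6.86 over the other 5 strains, a difference of 1.97 ± 0.25 (SE) or 3.91-fold (adjusted p = 0.00087 in limma). Mt2A averaged 12.71 in BN and 10.39 over the others, a difference of 2.32 ± 0.47 or 4.98-fold (adjusted p = 0.0156). Klf15 averaged 10.83 in BN and 9.57 over the others, a difference of 1.26 ± 0.18 or 2.40-fold (adjusted p = 0.0017). These 3 of 7 genes compare with 2.6% of all probe sets called higher in BN, and each had both BN livers above the 10 others, as did 3.74% of all probe sets. Calls in either direction covered 4.68% in BN. Because higher targets in BN were known from these data when the genes were chosen, these counts are descriptions.

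The remaining 4 genes were not called in BN, with differences of 0.84 for Tsc22d3 (adjusted p = 0.0609), 0.70 for Klf9, 0.40 for Sgk1 and -0.30 for Nr3c1. The median difference of the 7 genes in BN was 0.84, against -0.00 over all probe sets. A second Klf15 probe set (1381396_s_at) was higher in BN by 1.19 (adjusted p = 0.00652), whereas a second Fkbp5 probe set (1380611_at) differed by 0.77 and was not called (adjusted p = 0.119). Without BN replicate 1 neither Mt2A (adjusted p = 0.11) nor Klf15 (0.0523) was called in BN, and without BN replicate 2 the adjusted p of Mt2A was 0.177. In the fit of all 58 arrays Fkbp5 in BN was not called (adjusted p = 0.0717).

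M520 livers were lower in Mt2A and Fkbp5. Mt2A averaged 8.70 in M520 and 11.19 over the other 5 strains, a difference of -2.50 ± 0.47 (SE; adjusted p = 0.0139), with both M520 livers below the 10 others, as for 5.12% of all probe sets. Fkbp5 averaged 6.23 in M520 and 7.38 over the others, a difference of -1.15 ± 0.25 (adjusted p = 0.0271), with M520 values overlapping those of WKY. Lower calls covered 2.76% of all probe sets in M520, and calls in either direction 4.65%. Tsc22d3 pointed the other way in M520, at 0.69 (adjusted p = 0.115), and Klf15 differed by -0.02. Without M520 replicate 1 neither Mt2A (adjusted p = 0.227) nor Fkbp5 (0.269) was called, nor without M520 replicate 2 (0.0588 and 0.144), and the second Fkbp5 probe set gave -0.80 (adjusted p = 0.0953).

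WKY livers were lower in Tsc22d3 and Klf15. Tsc22d3 averaged 8.81 in WKY and 9.91 over the other 5 strains, a difference of -1.10 ± 0.23 (SE; adjusted p = 0.0173). Klf15 averaged 9.14 in WKY and 9.90 over the others, a difference of -0.76 ± 0.18 (adjusted p = 0.0328). Both WKY livers lay below the 10 others for each gene, as for 3.97% of all probe sets, and 2.07% were called lower in WKY (4.74% in either direction). Neither call held when 1 of the WKY livers, whichever it was, was left out (adjusted p up to 0.146 for Tsc22d3 and 0.236 for Klf15) or in the fit of all 58 arrays (0.317 for Tsc22d3 and 0.142 for Klf15), and the second Klf15 probe set gave -0.54 (adjusted p = 0.194). Klf15 in WKY was also not called without BN replicate 1 (0.0554) or without M520 replicate 2 (0.0536).

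In ACI, BUF and F344 limma called 0 of 7 genes, against 2.42%, 5.76% and 1.61% of all probe sets in either direction. At an unadjusted p under 0.05 there were 1 gene in ACI, 4 in BUF and 3 in F344, where 15.6%, 23% and 11.3% of all probe sets passed, so the count in ACI was near the background. The 4 in BUF all had negative differences: Tsc22d3 at -0.78 (adjusted p = 0.0677), Sgk1 at -0.67 (0.089), Klf15 at -0.40 and Nr3c1 at -0.39.

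**Figure D2:**
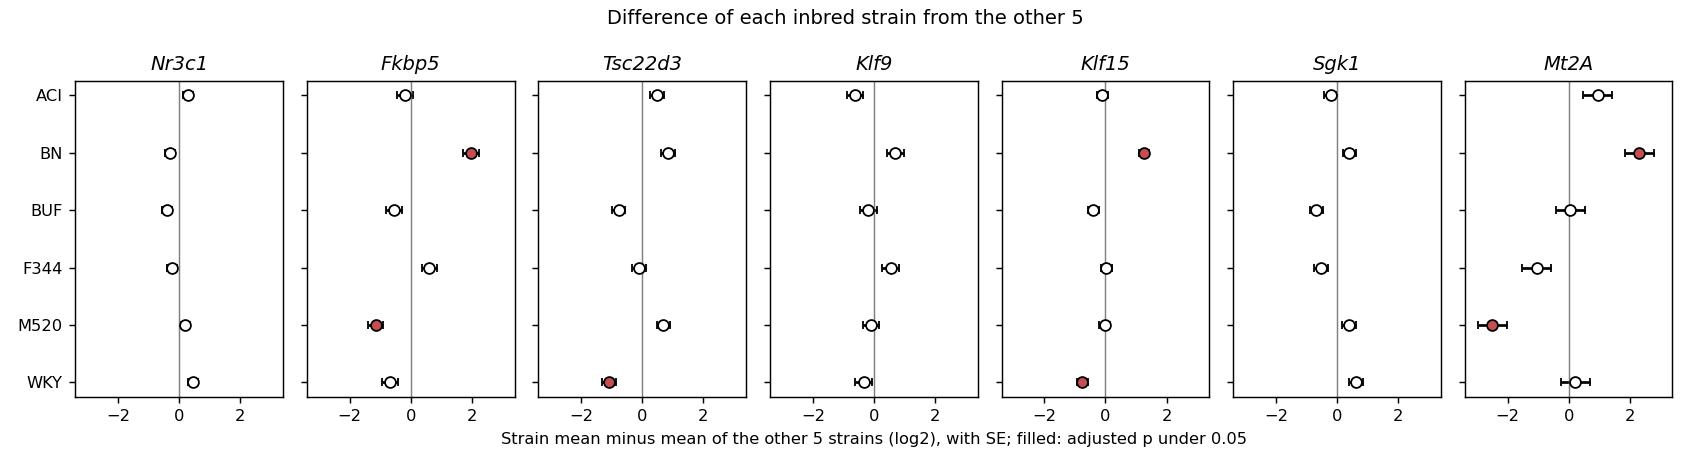
Difference of each strain's mean from the mean of the other 5 strains (log2, horizontal axes) with its SE, for the 7 measured genes; filled points passed an adjusted p of 0.05. There are 7 filled points: Fkbp5, Klf15 and Mt2A in BN, Fkbp5 and Mt2A in M520, and Tsc22d3 and Klf15 in WKY.

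The order of strain means differed between the genes. BN was highest for Fkbp5, Tsc22d3, Klf9, Klf15 and Mt2A, and WKY for Sgk1 and Nr3c1. The lowest was M520 for Fkbp5 and Mt2A, WKY for Tsc22d3 and Klf15, BUF for Sgk1 and Nr3c1, and ACI for Klf9. Of all steps between neighbouring strains in these orders, limma called only BN above F344 for Klf15, by 1.03 ± 0.23 (SE; adjusted p = 0.0326). The step with BN above F344 for Fkbp5 was 1.13 ± 0.33 (adjusted p = 0.0979), with no overlap of their arrays. Of the 15 pairs of strains, 5 were called for Fkbp5, 5 for Klf15, 5 for Tsc22d3, 3 for Mt2A, 1 for Sgk1 and 0 for both Klf9 and Nr3c1, where 3.88% of the tests of all probe sets over these pairs were called. At an unadjusted p under 0.05 there were 3 pairs for Klf9 and 6 for Nr3c1, against 17.1% of those tests.

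Other responsive genes were called in BN, M520 and WKY, and 1 in BUF, where no measured target was. By the F test 9 of 27 passed, against 11.9% of all probe sets, and in BN 5 were higher and 0 lower, against 2.6% higher, with a median difference of 0.27 over the 27. These were Igfbp1 (difference 2.22, adjusted p = 0.00782), Sds, a serine-degrading enzyme (1.84), Mt1 (1.31), Tat (1.08) and Foxo3, a fasting-activated forkhead factor (1.05). Sds did not pass the F test (adjusted p = 0.0908), and for Sds and Mt1 the BN values overlapped those of other strains. Tat was 11.25 and 10.91 in BN, against a range of 9.38 to 10.89 over the other inbred livers. In M520, 2 were higher and 2 lower, against 1.89% and 2.76% of all probe sets. The lower ones were Mt1 (-1.78) and Foxo3 (-0.57). The higher ones, which ran opposite to Mt2A and Fkbp5 there, are not named here. Over the 27, the median difference was 0.03 in M520 and -0.03 in WKY. In WKY, 1 was higher and 2 lower, against 2.67% and 2.07%, so that the single higher call was near the background. Among the lower ones was Per1, a clock gene with receptor sites in its control region (-0.87, adjusted p = 0.0361). The gene in BUF was Tdo2, which encodes a tryptophan-degrading enzyme (-0.77, adjusted p = 0.0258), where 3.27% of all probe sets were lower. That glucocorticoid targets were higher in BN was known from these data when the genes were chosen.

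Genes that set how much hormone reaches the receptor also differed. The F test called 4 of 5 genes of corticosterone handling, against 11.9% of all probe sets. Strain calls in either direction covered 2.42% of all probe sets in ACI, 4.68% in BN, 4.65% in M520 and 4.74% in WKY. Serpina6, which encodes the plasma carrier of corticosterone, averaged 11.57 in M520 and 12.28 over the other 5 strains (difference -0.71, adjusted p = 0.00673), and 12.64 in WKY and 12.07 over the others (0.58, adjusted p = 0.0161). Akr1d1, a reductase that inactivates steroids, was lower in BN (-0.83) and higher in M520 (0.81). Hsd11b2, which inactivates corticosterone, was higher in ACI (0.67) and lower in BN (-0.61), and Hsd11b1 did not pass the F test (adjusted p = 0.185). H6pd, also of this list, passed it. Across the 46 HS livers limma called H6pd with Fkbp5 (r = 0.599), Klf9 (0.542), Tsc22d3 (0.479) and Nr3c1 (-0.731). Positive calls covered 1.29% of all probe sets for Fkbp5, 1.27% for Klf9 and 0.902% for Tsc22d3, and 20.9% correlated with Nr3c1. Without the 5 HS arrays of lowest mean correlation, 0 of the 5 listed genes were called with Klf9 or Tsc22d3. Of 12 chaperones and coregulators of the receptor, 0 passed the F test in limma after adjustment. At an unadjusted p under 0.05 there were 4 of 12, close to the 29.4% of all probe sets.

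Markers of other cells were called in BN, M520 and WKY, and also in BUF, where no target was. Liver endothelial markers were higher in BN for 5 of 8, with a summed level of 70.12 to 71.67 in BN against 63.17 to 69.38 in the other strains. Higher calls covered 2.6% of all probe sets in BN. Kupffer cell and macrophage markers were higher in BN for 2 of 8, with sums of 71.02 to 76.72 in BN against 65.29 to 73.79 elsewhere, and lower in M520 for 2 of 8, with sums of 65.49 to 66.86, against 2.76% of all probe sets. M520 also had 1 of 8 endothelial and 1 of 8 hepatocyte markers lower. In WKY 1 of 8 Kupffer cell markers was higher, with sums of 71.48 to 73.79, and 2 of 10 stellate cell and matrix genes were higher, against 2.67% of all probe sets. In BUF 3 of 8 endothelial, 2 of 8 Kupffer cell and 3 of 10 stellate cell and matrix genes were lower, against 3.27%. None of the 8 endothelial and 8 Kupffer cell markers fell below the array median in any group. Hepatocyte markers were called for 0 of 8 in BN, where their sum was 110.71 and 111.19, against 109.10 to 110.49 in the other strains. The part of these markers in the BN, M520 and WKY differences was not tested.

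Mt2A was set beside its paralog Mt1 and beside Slc39a4, the gene that ran most opposite to it. Mt1 gave 8.24 and 7.46 in BN, 4.997 and 5.55 in M520, 6.43 and 6.67 in ACI, 7.10 and 7.50 in BUF, 5.95 and 6.95 in F344, and 7.12 and 7.11 in WKY. Both M520 livers were lowest for Mt1 as for Mt2A, and BN had the highest mean. Mt1 and Mt2A transcripts are alike enough that probes for 1 may pick up the other, which was not tested. Slc39a4, which encodes the zinc importer ZIP4, took the opposite order, at 7.91 and 7.58 in BN, 9.50 and 9.13 in M520, 8.37 and 8.37 in ACI, 8.93 and 9.11 in BUF, 9.31 and 9.18 in F344, and 8.16 and 8.88 in WKY.

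The difference of Slc39a4 was -1.15 in BN (adjusted p = 0.00206) and 0.73 in M520 (adjusted p = 0.032), each relative to the other 5 strains. Over the 12 inbred livers its r with Mt2A was -0.925, and over the 46 HS livers -0.611, the lowest of 9375 genes considered. Within WKY, the liver with the higher Mt2A (12.17) had the lower Slc39a4 (8.16), and the liver with Mt2A at 9.74 had Slc39a4 at 8.88. Slc39a4 was chosen for this relation after its values were seen, so these are descriptions.

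**Figure D3:**
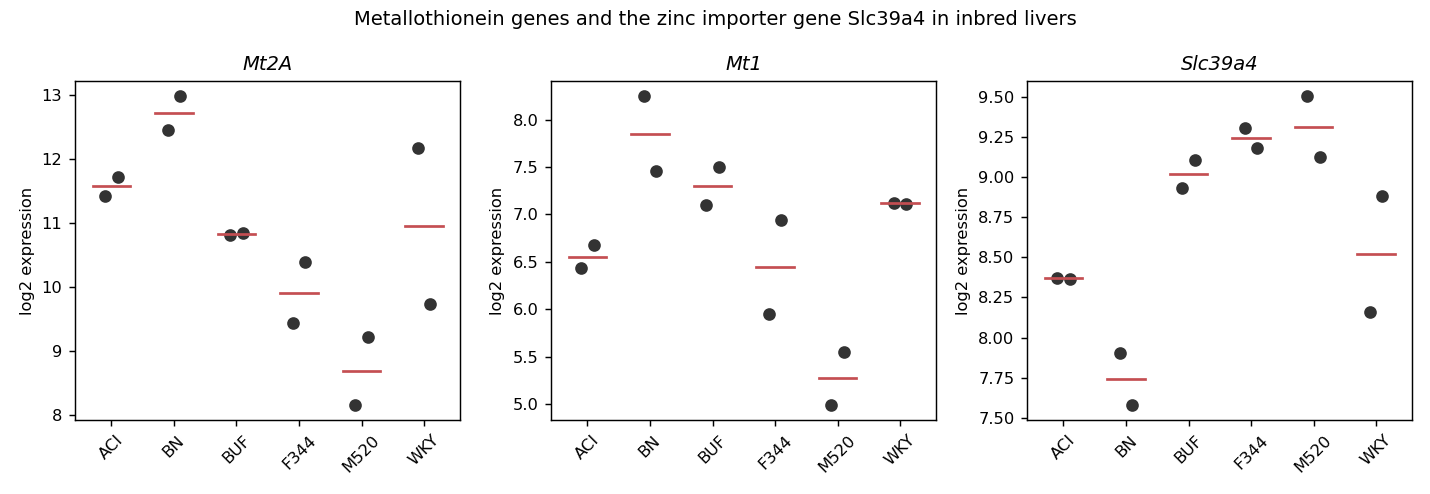
Log2 expression (vertical axes, which differ by panel) of Mt2A, Mt1 and Slc39a4 in the inbred livers; each point is 1 array and red lines are strain means. Mt2A and Mt1 are highest in BN and lowest in M520, whereas Slc39a4 is lowest in BN and highest in M520.

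Set against the inbred livers as a whole, the outbred HS livers gave no call among the measured genes. Limma called 0 of 7 genes between the mean of both HS groups and the mean of the 6 strains, against 5.05% of all probe sets. Klf15 was nearest, at 10.11 in HS and 9.78 in inbred livers, a difference of 0.34 ± 0.12 (SE; p = 0.00713, adjusted p = 0.0886), and it was the 1 gene of 7 at an unadjusted p under 0.05, no more than the 19.6% of all probe sets. Without BN the Klf15 difference was 0.55 (adjusted p = 0.00836). The labels do not say whether HS and inbred arrays were run side by side, so stock and processing cannot be told apart. HS livers mostly stayed within the inbred range: 0 of 46 lay outside it for Mt2A and for Klf15, 2 for Fkbp5, and 13 for Tsc22d3, of which 9 were above and 4 below.

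Although the glucose groups did not separate them, Fkbp5, Tsc22d3, Klf9 and Klf15 varied together from rat to rat. The question was whether the genes vary jointly among the 46 HS livers, and 21 pairs were examined. A pair was called when limma, with the glucose group as a term and adjustment over all probe sets, passed 0.05 in both directions of regression. Of 21 pairs, 6 were called, and these were the 6 pairs among Fkbp5, Tsc22d3, Klf9 and Klf15. For comparison, 2.15% of all probe sets correlated with Fkbp5, 1.4% with Tsc22d3, 1.99% with Klf9 and 2.07% with Klf15.

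Fkbp5 and Klf9 had a Pearson r of 0.756 and a Spearman rho of 0.775 (permutation p = 1e-05 for both, the smallest that 100000 two-sided resamples give; larger adjusted p = 3.99e-07). Their r was 0.669 among intolerant and 0.829 among normal HS livers, and 0.740 without the 2 livers farthest from the median of Fkbp5. Tsc22d3 and Klf15 had an r of 0.737 and a rho of 0.756 (permutation p = 1e-05 for both; larger adjusted p = 1.09e-06), with 0.753 among intolerant and 0.737 among normal HS livers and 0.685 without the 2 farthest. Klf9 and Klf15 had an r of 0.718 and a rho of 0.675 (permutation p = 1e-05 for both; larger adjusted p = 5.76e-06), with 0.682 and 0.753 in those groups and 0.717 without the 2 farthest.

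Fkbp5 and Klf15 followed, with an r of 0.690 and a rho of 0.690 (permutation p = 2e-05 and 1e-05; larger adjusted p = 1.79e-05), 0.740 among intolerant and 0.652 among normal HS livers, and 0.692 without the 2 farthest. Tsc22d3 and Klf9 had an r of 0.570 and a rho of 0.514 (permutation p = 0.0001 and 0.00035; larger adjusted p = 0.00319), with 0.670 among intolerant and 0.471 among normal HS livers and 0.508 without the 2 farthest. Fkbp5 and Tsc22d3 had an r of 0.545 and a rho of 0.539 (permutation p = 0.00013 and 0.00022; larger adjusted p = 0.00666), with 0.615 among intolerant and 0.496 among normal HS livers and 0.529 without the 2 farthest. Tested within a glucose group alone, 5 pairs were called among intolerant and 4 among normal HS livers. All 6 were called without the 5 HS arrays of lowest mean correlation.

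The other 15 pairs had r between -0.426 and 0.293 and none was called, the smallest of their larger adjusted p-values being 0.101. Mt2A had r of -0.214 to 0.265 over its 6 pairs, and Sgk1 had r of -0.12 to 0.293. Only 0.0258% of all probe sets correlated with Mt2A and 0.457% with Sgk1, so the lack of called pairs was near the background. Fkbp5 and Nr3c1 tended to run in opposite directions but were not called (larger adjusted p = 0.101 in limma). Over all HS livers their r was -0.426 and their rho -0.406 (permutation p = 0.00297 and 0.00559). Their r was -0.469 among intolerant and -0.395 among normal HS livers, and -0.298 without the 2 livers farthest from the median of Fkbp5. In the 5 HS arrays of lowest mean correlation, ranks counted from the lowest were 1 to 19 for Nr3c1 and 16 to 46 for Fkbp5. Of the 12 HS livers highest in Fkbp5, 9 were also among the 12 highest in Klf15, 8 in Klf9, 6 in Tsc22d3, 5 in Mt2A, 4 in Sgk1 and 2 in Nr3c1. Of the 12 lowest in Fkbp5, 6 were among the lowest in Klf15, 6 in Klf9, 5 in Tsc22d3, 3 in Mt2A, 3 in Sgk1 and 1 in Nr3c1. These counts are descriptions, and the 5 for Mt2A lay close to the 6 for Tsc22d3, although only Tsc22d3 was called with Fkbp5.

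Over the 12 inbred livers, where arrays of a strain share a genotype, the 6 called pairs had r between 0.333 and 0.82. Fkbp5 and Mt2A, at 0.183 in HS livers, had an r of 0.686 there, with BN high and M520 low for both genes.

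**Figure D4:**
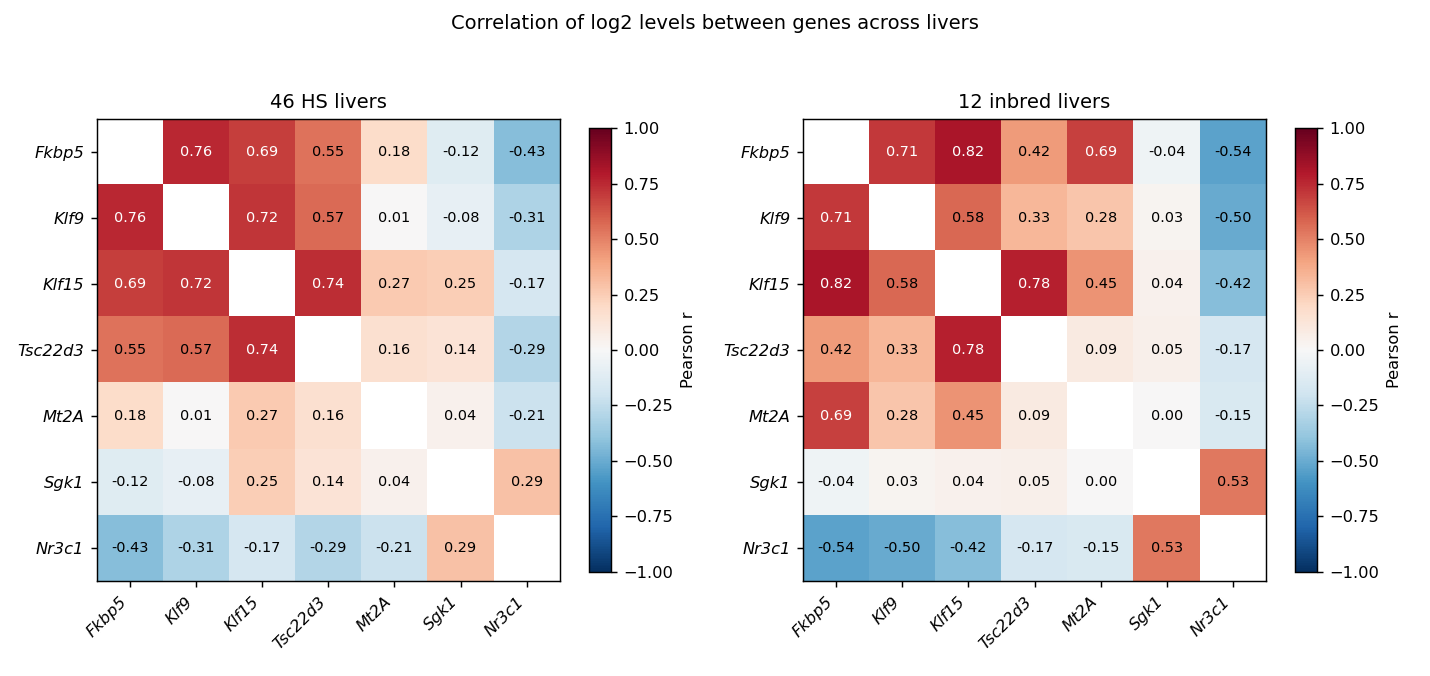
Pearson r of log2 levels between the 7 measured genes over 46 HS livers (left) and 12 inbred livers (right); colour and number give r. The 4 genes at the upper left form a block of positive r in HS livers, 0.55 to 0.76, that Mt2A, Sgk1 and Nr3c1 do not join.

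**Figure D5:**
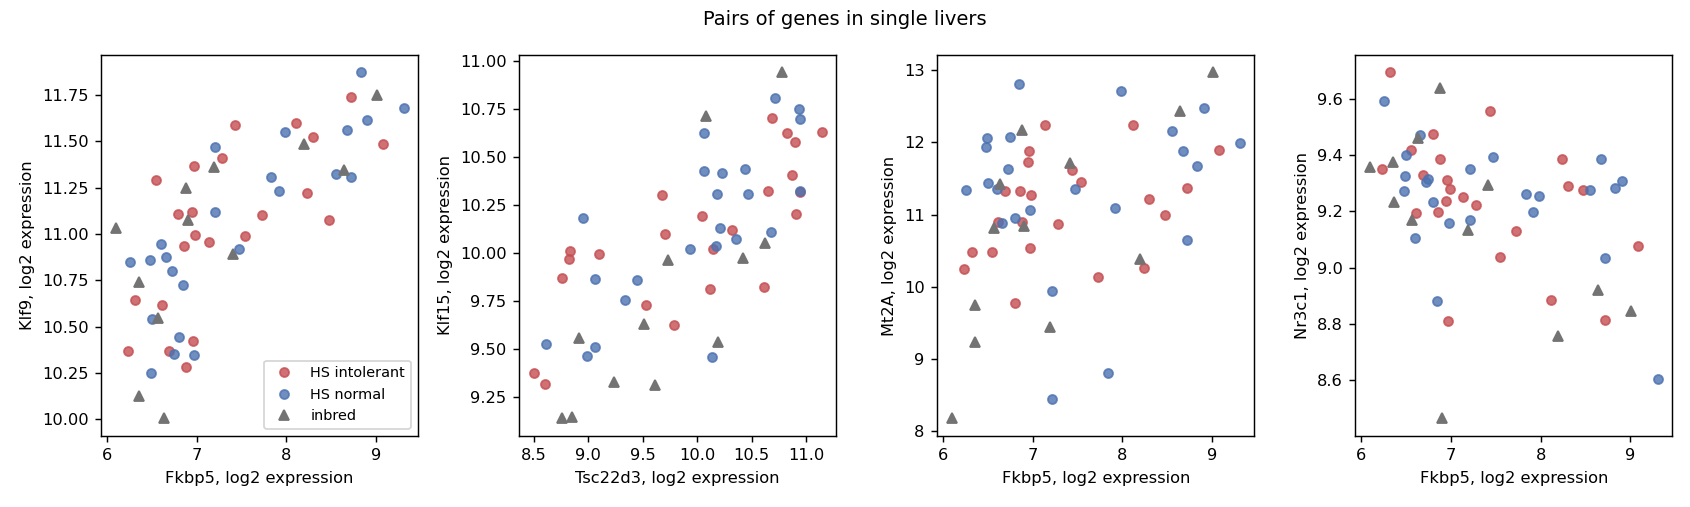
Log2 expression of gene pairs in single livers, with intolerant HS, normal HS and inbred livers marked. Klf9 climbs with Fkbp5 and Klf15 with Tsc22d3 in both HS groups, while Mt2A shows no such relation with Fkbp5 (r = 0.183) and Nr3c1 tends to be lower where Fkbp5 is higher (r = -0.426). The pair of Fkbp5 and Nr3c1 was not called.

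Other responsive genes varied with the same 4 targets. Of the 27, Klf15 correlated with 12 positively and 1 negatively, Tsc22d3 with 11 and 2, Klf9 with 7 and 1, and Fkbp5 with 6 and 0, whereas Mt2A, with which 0.0258% of all probe sets correlated, and Sgk1 correlated with 0 (limma, adjusted p under 0.05). At an unadjusted p under 0.05 there were 4 of 27 for Mt2A, against 8.19% of all probe sets, and 5 of 27 for Sgk1, against 14.6%. Positive calls covered 1.23% of all probe sets for Klf15, 0.902% for Tsc22d3, 1.27% for Klf9 and 1.29% for Fkbp5, and negative calls 0.841% for Klf15, 0.496% for Tsc22d3 and 0.722% for Klf9. Per1 had an r of 0.871 with Tsc22d3 and 0.845 with Klf15, and Tat one of 0.808 with Klf15 and 0.622 with Tsc22d3. Nfkbia, which encodes an inhibitor of NF-kappaB, and Cebpb, a C/EBP transcription factor gene, had r of 0.827 and 0.788 with Tsc22d3. Foxo3 had an r of 0.802 with Fkbp5 and 0.764 with Klf9.

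Negative r was found for Pdk4, which encodes a kinase that blocks pyruvate oxidation and is itself a known hormone target, at -0.636 with Tsc22d3 and -0.684 with Klf15. Mt1 had an r of 0.472 with Mt2A across the HS livers, which was not called (adjusted p = 0.208). Without the 5 HS arrays of lowest mean correlation the positive counts were again 12, 11, 7 and 6 for Klf15, Tsc22d3, Klf9 and Fkbp5.

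Clock genes correlated with Klf15 in both directions. Of 16 measured clock genes, 4 correlated with it positively, against 1.23% of all probe sets, and 4 negatively, against 0.841%, and 3 of each without the 5 arrays. Per1 and Per2 also belong to the 27 responsive genes, so Per1 is counted in both lists. Per1 (0.845), Tef (0.589), Nr1d2 (0.494) and Per3 (0.474) were positive, and Nfil3 (-0.751), Npas2 (-0.540), Bmal1 (-0.521) and Cry1 (-0.458) negative. Tef and Nfil3 encode factors that compete at the same DNA sites, and Bmal1 and Npas2 encode partners that drive the clock. Klf9 correlated with 3 positively and 2 negatively, against 1.27% and 0.722%, among them Tef (0.616) and Bmal1 (-0.548). The strains differed in 7 of the 16 clock genes by the F test, a test that called 11.9% of probe sets overall. In BN, where Klf15 was higher, 3 clock genes were higher and 3 lower, against 2.6% of all probe sets higher and 646 of 31042 lower. In WKY, where Klf15 was lower, also 3 were higher and 3 lower, against 2.67% and 2.07%. Npas2 (-1.16 in BN and -0.72 in WKY) and Cry1 (-0.86 and -1.22) were lower and Nr1d2 (1.34 and 1.301) higher in both strains. Nr1d1 was also higher in both (1.45 and 1.37), relative to means that include its low ACI and M520 levels. Per1 ran as Klf15 did, lower in WKY (-0.87, adjusted p = 0.0361 in limma) and at 0.79 in BN, where it was not called (0.0551). The labels do not give the hour at which each rat died, and its part in these relations was not tested.

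The receptor gene and Sgk1 kept other company, and much of it rested on few arrays. Nr3c1 correlated with 20.9% of all probe sets, but with 0.76% once the 5 HS arrays of lowest mean correlation were left out, whose Nr3c1 levels ranked between 1 and 19 of 46, counted from the lowest. Of the 27 responsive genes Nr3c1 correlated with 1 positively and 8 negatively, and with 0 and 1 without those arrays. Sgk1 correlated with Csf1r (r = 0.548) and C1qb (0.509), which are Kupffer cell and macrophage genes, and with Fcgr2b (0.534), an Fc receptor of liver endothelium, and 0.457% of all probe sets correlated with it. Without the 5 arrays it correlated with none of these, and with 1 probe set in all.

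The genes most like each target were chosen by Pearson r over the 46 HS livers among 9375 genes at or above the median level, with r over the 12 inbred livers as a second description. For Fkbp5 they were Rhbdd2, a rhomboid family gene (r = 0.885 in HS and 0.984 in inbred livers), Lpin1, which encodes the phosphatidate phosphatase lipin 1 (0.854 and 0.888), and Edem1, of endoplasmic reticulum protein disposal (0.844 and 0.753). Lpin1 was also higher in BN, at 11.08 in BN against 8.50 over the other 5 strains (adjusted p = 0.000297). For Tsc22d3 they were Rasgef1b, a Ras-family exchange factor gene (0.922 and 0.868), Tcim (0.917 and 0.919) and Proser2 (0.902 and 0.643).

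For Klf9 they were Usp2, a ubiquitin-specific protease gene with daily rhythm (0.871 in HS and 0.666 in inbred livers), Klf13, a relative of Klf9 (0.836 and 0.743), and Il6r, the interleukin-6 receptor gene (0.820 and 0.360). Klf15 was most like Zfp354a, a zinc finger gene (0.853 and 0.723), Usp2 (0.851 and 0.858) and Per1 (0.845 and 0.746). Usp2 itself was higher in BN (1.95, adjusted p = 0.0163) and lower in WKY (-2.15, adjusted p = 0.00997), as Klf15 was.

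The highest r for Mt2A and Sgk1 was 0.610 and 0.619. Mt2A was nearest to Ifitm3, an interferon-induced membrane protein gene (0.610 in HS and 0.811 in inbred livers), Wnt5b (0.593 and 0.106) and Cd200r1l (0.565 and 0.653). With Mt2A, 0 of 8 Kupffer cell and macrophage markers were called in limma, but 8 of 8 had an unadjusted p under 0.05, against 8.19% of all probe sets. With Sgk1, 5 of 8 of these markers and 6 of 8 endothelial markers had an unadjusted p under 0.05, against 14.6%, and 2 and 1 of them were called. The part of these cells in Mt2A and Sgk1 levels was not tested. Sgk1 was nearest to Fmnl2, a formin gene (0.619 and 0.774), Gatm, the first enzyme gene of creatine synthesis (0.614 and 0.484), and Slfn5 (0.610 and 0.795). Nr3c1 was nearest to Snapin (0.798 and 0.894), Zfp654 (0.787 and 0.828) and Smc5 (0.785 and 0.889), with 0.585, 0.708 and 0.60 in HS livers once the 5 arrays were left out.

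Second probe sets followed the first to a varying degree. Over the 46 HS livers r with the brighter probe set was 0.875 for Fkbp5 (1380611_at), 0.859 for Klf15 (1381396_s_at) and 0.488 for Klf9 (1387882_at). Further probe sets of Klf9, Klf15 and Nr3c1 had means of 3.54, 3.50 and 4.48, below the array medians, and r of 0.367, 0.163 and 0.311.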

How the data were processed

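Per the labels' protocols, liver RNA was amplified in 2 cycles, biotin-labelled and hybridised to Affymetrix rat arrays. The authors deposited log2 expression values of 31042 probe sets on a common scale. The submitters' processing notes name Partek, and how it corrected background and normalised is not stated there. No detection calls were used. HS groups came from titles and design text, since the label text for the intolerant rats reads both ways.

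Of the probe sets, 20826 had 1 symbol in the platform annotation, 436 had several and 9780 had none. By gene identifier, 14167 of 14217 genes were found in GRCr8, whose coordinates are given. Tests used R 4.3.3 and limma 3.58.1 (lmFit, eBayes) on deposited values without a filter, adjusted by Benjamini-Hochberg over all probe sets, threshold 0.05; the tests were checked on simulated data. Correlation permutations used Python 3.11.15 and scipy 1.17.1. The genes, lists and tests were chosen with earlier results of these data known. Further genes could be named if called in a listed group (at most 6, largest differences) or among the 3 highest r. Not all called genes are named. Hsd11b1, Serpina6, Tat, Igfbp1, Per1, Mt1, Nr1d1 and Dbp were set to be named whatever their values. Nr1d1, a clock repressor gene, differed among strains (ACI -2.49, M520 -2.68, BN 1.45, F344 1.46, WKY 1.37, each relative to the other 5). Its means were 4.51 in ACI and 4.35 in M520, against 7.79 in BN, 7.32 in BUF, 7.80 in F344 and 7.72 in WKY. The reference mean for BN, F344 and WKY thus includes the low ACI and M520 levels. Dbp, a clock output gene, did not pass the F test (adjusted p = 0.0686). Alternatives covered brighter probe sets, 1 probe set per gene, quantile normalisation, median centring, trend and robust estimation, array weights, a replicate block, joint fits and leaving out arrays or strains, where the lone array of a strain is assumed to vary like the others. The number of arrays limits the precision.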

Additional observations from a re-analysis of the deposited data

How the results depend on the processing

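With 2 arrays a strain, the strain calls are the fragile ones. Over fits that each left out 1 inbred array, 3 to 5 genes passed the F test, and 4 to 9 strain differences were called in all: 1 to 4 in BN, 0 to 3 in M520, 0 to 3 in WKY, 0 to 1 in BUF, 0 to 1 in F344 and 0 in ACI. Trend and robust estimation left 1 call in M520, with Mt2A at adjusted p = 0.0641 in M520, 0.0855 in BN and 0.0798 in the F test. Fitting all 58 arrays left 3 calls in all, 1 in M520 and 0 in WKY. Without BN, 1 gene was called between HS and inbred livers.

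Differences between glucose groups near 0 changed sign without being called: Nr3c1 to -0.0146 with quantile normalisation, -0.00567 with array weights and -0.00355 without the 5 HS arrays (an alternative chosen after seeing the data, as were the correlations without them), Sgk1 to 0.00521 with median centring and 0.0444 without the 5, Klf9 to -0.0185 without the 5, and second probe sets gave 0.104 for Fkbp5 and 0.0613 and 0.0159 for Klf15. The dim Klf15 probe set 1381395_at gave -0.0396 in BN and 0.0276 in WKY. The causes were not tested.

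Over all probe sets, the F test called 3700, and 2130 to 5945 with 1 array left out. Between the glucose groups 12 probe sets were called with array weights, 9 without the 5 arrays and 1 with quantile normalisation, with 0 of the 7 genes among them. With the replicate block, 3698 probe sets and 5 of the 7 genes passed the F test, Nr3c1 being added at adjusted p = 0.0448, and 7 strain differences were called. Replicate numbers did not pair the arrays in most strains. The deviations of same-numbered arrays correlated over 0.1 in 3 of 15 pairs of strains (median -0.06, highest 0.42). Shared handling of some same-numbered arrays was not tested. Signal over background was not given, so dim probe sets carry the least information.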
